A study of Mus musculus with 8 samples.

Results

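The genes described here are 10 amino acid transporters of the exocrine pancreas, chosen as a list of symbols and measured in whole pancreas of Sel1L knockout and wild type mice. Each had exactly 1 array feature whose only annotated symbol was the gene's, so all 10 were among the 18820 genes tested. The series holds 4 inducible Sel1L knockout samples and 4 wild type samples, 1 array each. Both groups were Sel1L flox/flox, with loxP sites around exon 6, on a background labelled C57BL/6J (the targeted embryonic stem cells were C57BL/6N). Knockout mice carried ERCre, in which an actin promoter drives a fusion of Cre recombinase with the estrogen receptor, and their wild type littermates lacked it. Tamoxifen at 5 mg/ml in sunflower oil was injected into mice 8 to 20 weeks old, 5 μl per g of body weight on each of 3 days. An actin promoter is not limited to acinar cells or to pancreas. The gene's loss, the presence of active Cre and losses in other tissues cannot be told apart.

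Acinar cells make and secrete digestive enzymes at a very high rate and draw the amino acids for them from the blood through solute carriers. Some of these carriers are coupled to sodium and concentrate amino acids in the cell, such as those of systems A and N (the SLC38 family) and the glycine transporters of SLC6. Others, in the SLC7 family, either carry cationic amino acids on their own or work as light chains that need the glycoprotein Slc3a2 (4F2hc, CD98) to reach the plasma membrane, where they exchange one amino acid for another. Sel1L is the adaptor of the Hrd1 ubiquitin ligase, which removes misfolded proteins from the endoplasmic reticulum. In cultured cells, loss of amino acids or stress of that organelle raises the transcription factor ATF4, which induces several transporter genes.

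Values are log2 expression values, and each difference is knockout minus wild type with its moderated standard error (SE) from limma, fitted over all 18820 genes. Calls were made where the p-value, adjusted by the Benjamini-Hochberg method, was under 0.05. Sel1l itself stood at 11.68, 11.66, 11.70 and 11.45 in the knockout arrays, against 12.37, 12.38, 12.38 and 12.39 in the wild type arrays (difference -0.76, SE 0.0788, limma adjusted p = 0.000196). All 4 knockout arrays were lower, as the labels have it. Array medians lay between 4.94 and 5.05, and correlations across genes were 0.992 to 0.995 among knockout arrays, 0.979 to 0.992 among wild type arrays and 0.968 to 0.983 between the groups. The labels number the samples but do not say that each is a separate animal, so p-values here measure the spread between samples that may be technical replicates. Letter codes in the sample descriptions differ between the groups; if they mark array positions, which is not stated, position and genotype cannot be told apart.

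Of the 10 transporters, 2 rose (Slc7a3 and Slc7a5), 4 fell (Slc38a5, Slc6a9, Slc38a2 and Slc7a8) and 4 did not pass the test (Slc3a2, Slc7a1, Slc7a11 and Slc43a1). Across all genes 28.7% were called, 16.1% higher and 12.6% lower, against 6 of 10 here. Calls were more frequent among brighter genes. With only genes above the median level tested, 4176 of 9410 were called, 72.2% of them higher. Of the 9 transporters in that fit, 2 were higher and 4 lower. The median difference of the 10 was 0.01, and that of all genes was -0.04. The knockout and wild type arrays did not overlap for 6 of the 10 genes, against 32.2% of all genes. Knockout values were above wild type values for 3 of the 10 and below them for 3, against 17.6% and 14.6% of all genes. In bulk tissue, fewer cells of a type and less RNA per cell cannot be told apart.

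**Figure D1:**
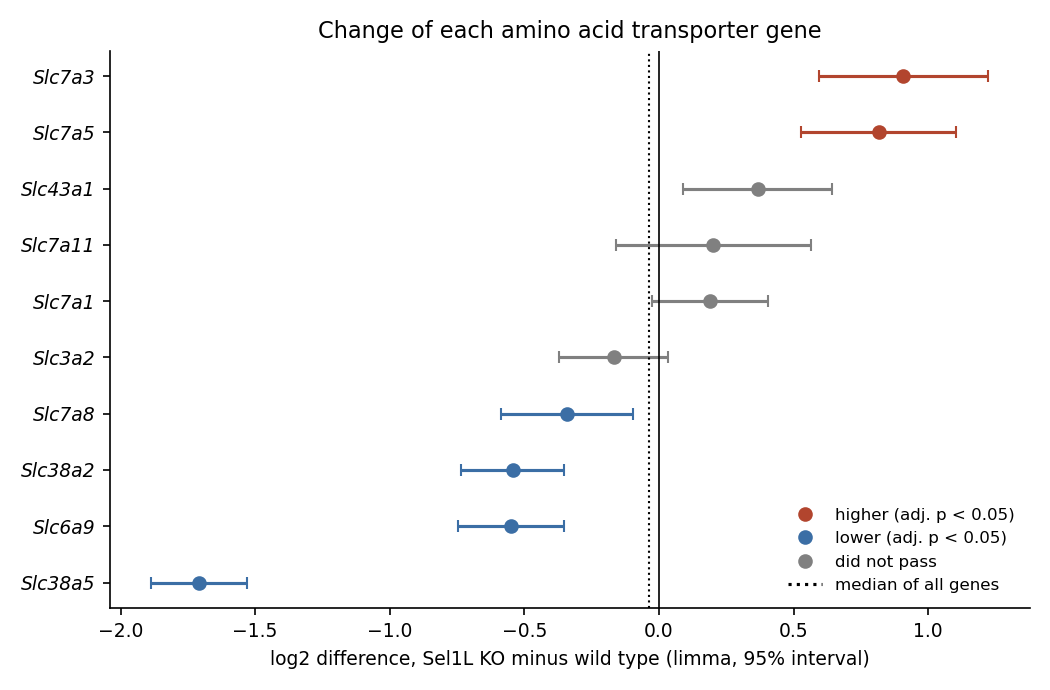
Log2 difference, Sel1L knockout minus wild type, of each of the 10 transporter genes, ordered from the largest rise at the top to the largest fall at the bottom. Points are limma estimates from 4 knockout and 4 wild type arrays, bars are 95% intervals, colours give the call at an adjusted p under 0.05, and the dotted line is the median of all genes at -0.04. Slc38a5 at -1.71 lies far below the other falls, the nearest of which is -0.55.

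Promoter sequences were read from RefSeq for GRCm38.p6, whose table held 8 of the 10 transporters in 11 windows of 300 bases, 250 before and 50 after an annotated start; Slc7a5 and Slc7a3 were not among them. The core of the response element of ATF4 with C/EBP factors, TGATGNAA, was searched on both strands. It was present in 3.97% of all 32851 windows, and among these transporters in that of Slc7a11. That window held 2 matches, which face each other, at 66 and 47 bases before the start; 0.0700% of all windows hold 2 or more. The 250 bases before the start of Slc7a11, at chr3:50443614-50443863 on the minus strand, are shown with both matches in capitals, beside those of Slc38a5, the gene with the largest fall, at chrX:8271131-8271380 on the plus strand, which hold no match.
Slc7a11: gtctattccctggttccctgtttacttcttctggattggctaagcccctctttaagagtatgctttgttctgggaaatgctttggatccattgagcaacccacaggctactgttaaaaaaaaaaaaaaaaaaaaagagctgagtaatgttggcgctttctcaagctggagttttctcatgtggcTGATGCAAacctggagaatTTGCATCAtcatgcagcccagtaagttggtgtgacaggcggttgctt
Slc38a5: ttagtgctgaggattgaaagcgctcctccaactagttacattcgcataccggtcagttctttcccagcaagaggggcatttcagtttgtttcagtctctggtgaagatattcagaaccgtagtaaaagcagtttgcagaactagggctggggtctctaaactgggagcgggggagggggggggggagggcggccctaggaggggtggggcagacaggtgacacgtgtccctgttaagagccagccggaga
The arrays of the 2 groups overlapped for Slc7a11, the gene with both matches, and a match in these letters is a description of the sequence, not of binding.

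The sodium-coupled carriers of the SLC38 family showed the largest change. Slc38a5, a system N transporter that carries glutamine, asparagine, histidine and serine, stood at 9.48, 9.36, 9.40 and 9.30 in the 4 knockout arrays, against 11.09, 11.22, 11.03 and 11.03 in the 4 wild type arrays. The groups lay apart by 1.55 log2 units, several times the range within either. The difference of -1.71 (SE 0.0795, 95% interval -1.89 to -1.53, limma adjusted p = 4.19e-06) was a 3.26-fold fall. Its absolute size exceeded that of 99.5% of all genes.

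Slc38a2, a system A transporter of small neutral amino acids such as alanine and glutamine, stood at 11.03, 11.20, 11.32 and 11.10 in the knockout arrays, against 11.76, 11.76, 11.61 and 11.69 in the wild type arrays. Every knockout value was below every wild type value, with a gap of 0.29. The difference of -0.54 (SE 0.0859, limma adjusted p = 0.00181) corresponds to a 1.46-fold fall. On the same array, Slc38a5 minus Slc38a2 averaged -1.78 ± 0.156 in knockout and -0.61 ± 0.0648 in wild type pancreas (SD, n = 4 each). Only the change of such a difference can be read, since features differ in brightness. The change was -1.16 (SE 0.0847, exact two-sided permutation p = 0.0286, adjusted p = 0.0357 over 5 pairs of genes), so Slc38a5 fell 2.24-fold more than Slc38a2 did. The p of 0.0286 is the smallest that 4 arrays against 4 can give.

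Slc6a9, the glycine transporter GlyT1, which moves glycine with sodium and chloride, fell as well. It stood at 11.36, 11.44, 11.29 and 11.35 in the knockout arrays, against 11.72, 11.95, 11.91 and 12.05 in the wild type arrays. The groups did not overlap. The difference of -0.55 (SE 0.0880, limma adjusted p = 0.00194) again corresponds to a 1.46-fold fall.

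**Figure D2:**
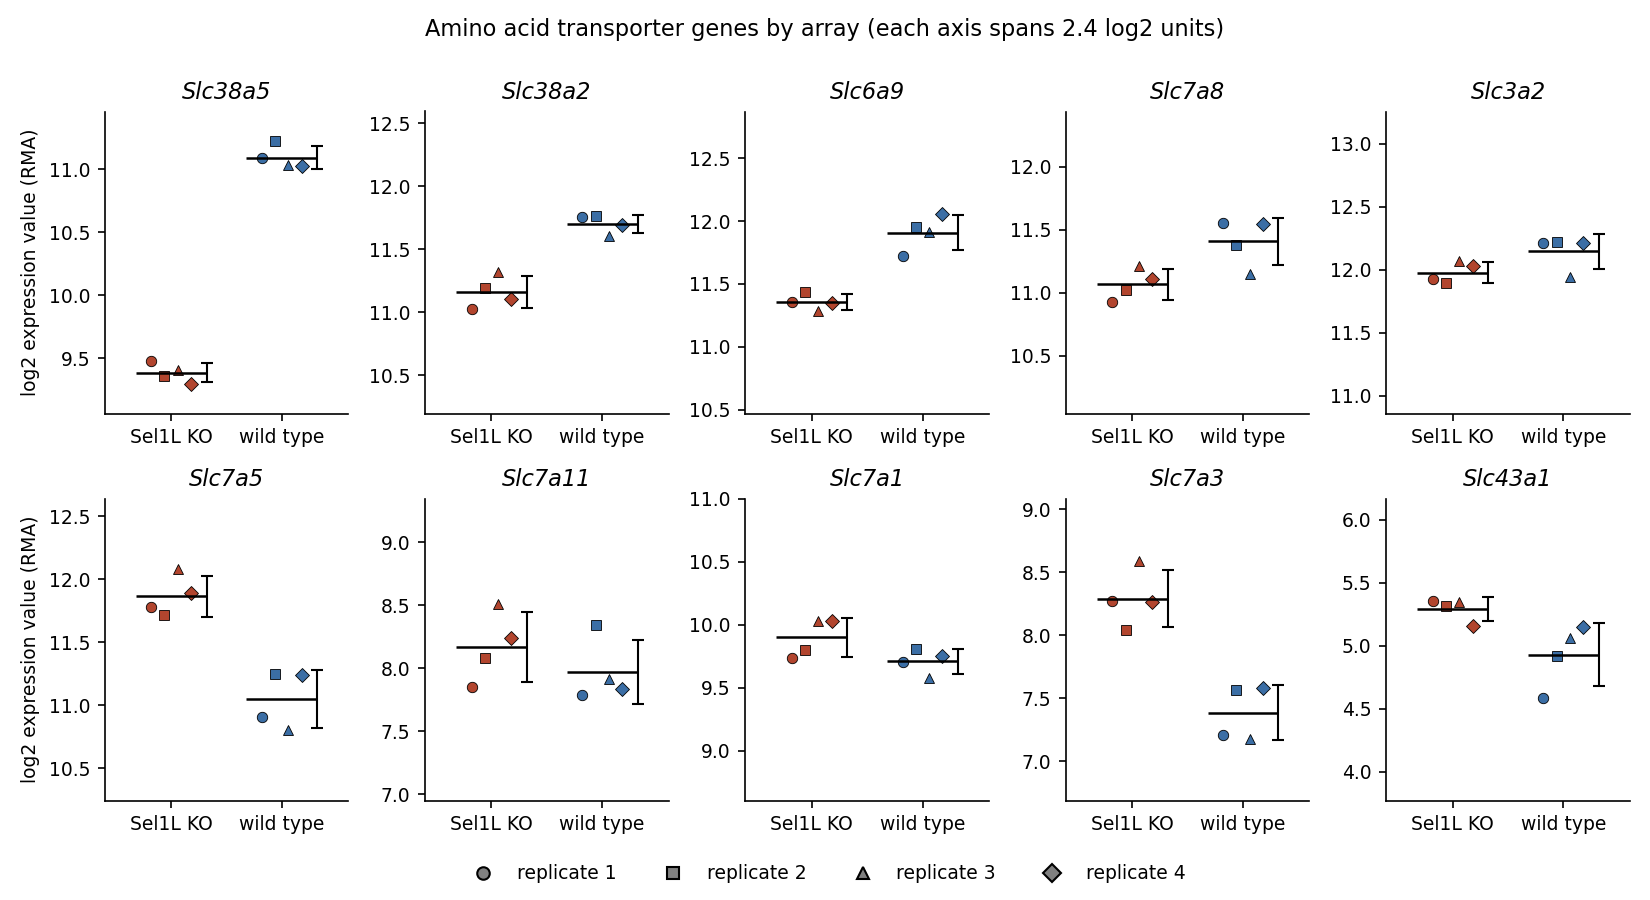
Log2 expression value of each of the 10 transporter genes on each array, Sel1L knockout on the left and wild type on the right of each panel. Symbols mark the replicate number of the labels, horizontal lines are group means and bars are SD (n = 4 each); every vertical axis spans the same number of log2 units. The groups lie apart for Slc38a5, Slc38a2, Slc6a9, Slc7a5 and Slc7a3, are separated by only 0.00103 for Slc43a1 and overlap for the other 4.

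The light chains that pair with Slc3a2 did not move together. Slc7a5 (LAT1), which brings in large neutral amino acids such as leucine in exchange for glutamine, stood at 11.78, 11.71, 12.08 and 11.89 in the knockout arrays, against 10.91, 11.25, 10.80 and 11.24 in the wild type arrays. All knockout arrays were above all wild type arrays, by at least 0.46. The difference of 0.82 (SE 0.129, limma adjusted p = 0.00179) was a 1.76-fold rise.

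Slc7a8 (LAT2), an exchanger with a broader range of neutral substrates, stood at 10.92, 11.02, 11.21 and 11.11 in the knockout arrays, against 11.56, 11.38, 11.15 and 11.55 in the wild type arrays. The groups overlapped, because wild type replicate 3 at 11.15 lay below knockout replicate 3. The difference of -0.34 (SE 0.110) passed the threshold narrowly (limma adjusted p = 0.0431). The call was lost when any array other than wild type replicate 3 was left out (limma adjusted p = 0.0511 to 0.105 over those 7 fits), and without wild type replicate 3 the difference was -0.43 (adjusted p = 0.0142). With the replicate number as a block the adjusted p was 0.0866.

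Slc7a11 (xCT), which takes up cystine in exchange for glutamate, stood at 7.85, 8.08, 8.51 and 8.24 in the knockout arrays, against 7.78, 8.34, 7.91 and 7.83 in the wild type arrays. The groups overlapped, and the difference of 0.20 did not pass (SE 0.162, 95% interval -0.16 to 0.56, limma adjusted p = 0.364). The interval includes a small fall as well as a rise of up to 0.56, so a change of Slc7a11 was not detectable with these arrays.

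Slc3a2, the heavy chain, stood at 11.92, 11.89, 12.07 and 12.03 in the knockout arrays, against 12.21, 12.22, 11.94 and 12.21 in the wild type arrays. Only wild type replicate 3 reached into the range of the knockout arrays. The difference was -0.17 (SE 0.0899, 95% interval -0.37 to 0.03, limma adjusted p = 0.181), and without wild type replicate 3 it was -0.24 (adjusted p = 0.0590).

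Because wild type replicate 3 was low for the heavy chain and for 2 light chains, Slc7a5 and Slc7a8, each light chain was also set against Slc3a2 on its own array. Such a difference cancels a shift common to all genes of an array. A normalization that depends on level can still change it, and the pairs were not refitted under another normalization. Slc7a5 minus Slc3a2 averaged -0.11 ± 0.0875 in knockout and -1.10 ± 0.160 in wild type pancreas (SD, n = 4 each). This within-array difference changed by 0.99 (SE 0.0914, exact permutation p = 0.0286, adjusted p = 0.0357), a 1.98-fold rise of Slc7a5 relative to its heavy chain, with no overlap of the groups. Slc7a8 minus Slc3a2 averaged -0.91 ± 0.0640 in knockout and -0.74 ± 0.0927 in wild type arrays (SD, n = 4 each). Here the change was small, -0.17 (SE 0.0563), and the groups were apart by a narrow margin (exact permutation p = 0.0286, adjusted p = 0.0357). For Slc7a11 minus Slc3a2, at -3.81 ± 0.211 in knockout and -4.18 ± 0.265 in wild type arrays (SD, n = 4 each), the groups overlapped (change 0.37, SE 0.170, exact permutation p = 0.0857, adjusted p = 0.0857).

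**Figure D3:**
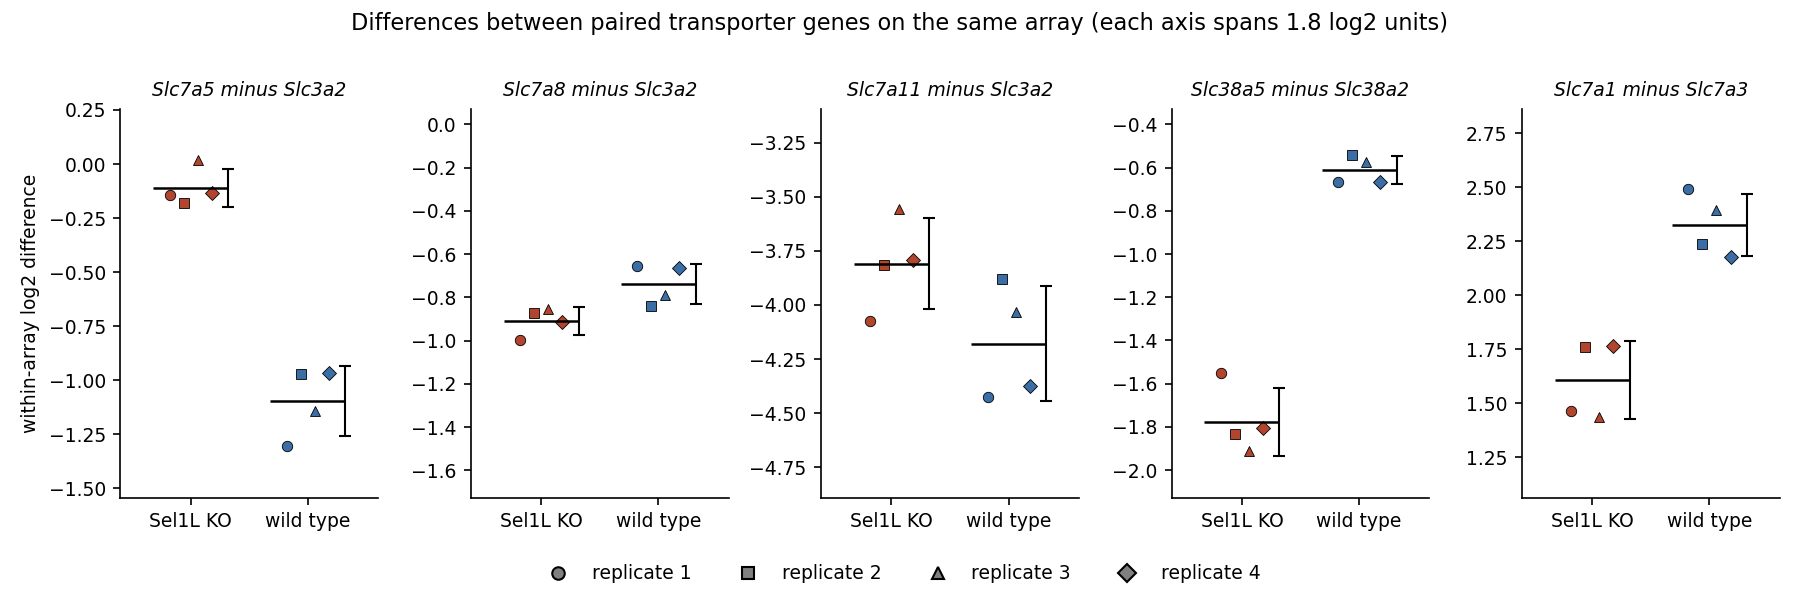
Difference in log2 value between 2 transporter genes on the same array, for the 5 pairs compared, Sel1L knockout on the left and wild type on the right of each panel. Symbols mark the replicate number, lines are group means and bars are SD (n = 4 each). Slc7a5 minus Slc3a2 is higher on every knockout array, Slc38a5 minus Slc38a2, Slc7a1 minus Slc7a3 and Slc7a8 minus Slc3a2 are lower on every knockout array, and Slc7a11 minus Slc3a2 overlaps.

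The cationic amino acid transporters, which carry arginine, lysine and ornithine, differed in their change. Slc7a3 (CAT-3) stood at 8.27, 8.04, 8.59 and 8.26 in the knockout arrays, against 7.21, 7.57, 7.18 and 7.58 in the wild type arrays. The groups lay apart by 0.46, and the difference of 0.91 (SE 0.140, limma adjusted p = 0.00162) was a 1.88-fold rise, the largest among the 10 genes. Slc7a1 (CAT-1), the widely expressed member of this group, stood at 9.74, 9.80, 10.03 and 10.03 in the knockout arrays, against 9.70, 9.81, 9.58 and 9.75 in the wild type arrays. The groups overlapped, and the difference of 0.19 did not pass (SE 0.0967, 95% interval -0.03 to 0.41, limma adjusted p = 0.165). Slc7a1 minus Slc7a3 averaged 1.61 ± 0.181 in knockout and 2.33 ± 0.145 in wild type arrays (SD, n = 4 each). The change of -0.72 (SE 0.116, exact permutation p = 0.0286, adjusted p = 0.0357) means that Slc7a3 rose 1.65-fold relative to Slc7a1 on the same arrays, with no overlap of the groups.

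Slc43a1 (LAT3), a sodium-independent carrier of large neutral amino acids, was the dimmest member, close to the array medians. It stood at 5.36, 5.32, 5.35 and 5.15 in the knockout arrays, against 4.58, 4.92, 5.06 and 5.15 in the wild type arrays. The lowest knockout array exceeded the highest wild type array by 0.00103. The difference of 0.37 (SE 0.124) missed the threshold (limma adjusted p = 0.0508). Without wild type replicate 4 it was 0.44 and passed (adjusted p = 0.0313), the 1 of 16 alternatives in which it did. Without wild type replicate 1, the lowest array, it was 0.25 and did not pass (limma adjusted p = 0.0794).

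Profiles over the 8 arrays were compared by the root mean square difference between log2 values centred on each gene, which for strongly changed genes mostly reflects the group difference. With predicted genes, receptor families and microRNAs left out, the profile most like that of Slc7a3 was that of Slc7a5, another member (0.0743 log2 units). The next were Pdia6, a disulfide isomerase of the endoplasmic reticulum (0.108), Dpep1, a membrane dipeptidase (0.108), Nucb1, a calcium-binding Golgi protein (0.113), and Hyou1, a chaperone of the endoplasmic reticulum (0.116). For both Slc7a3 and Slc7a5, knockout replicate 3 was the highest and replicate 2 the lowest knockout array. In both, wild type replicates 2 and 4 were above replicate 1, and replicate 1 above replicate 3. Knockout replicates 1 and 4, and wild type replicates 2 and 4, stood in opposite order in the 2 genes. These are the same values that made the profiles alike. For Slc38a5 no profile was as near. The closest were those of Galnt6, which starts mucin-type O-glycans (0.134), Trp53inp2, an autophagy factor (0.139), Trim16 (0.142), Myo16, an unconventional myosin (0.149), and Ptprn2, a membrane protein of dense-core granules (0.153), whose own differences lay between -1.64 and -1.46.

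Single arrays stood high or low for several members at once. Knockout replicate 3 was the highest of the 4 knockout arrays for 6 of the 10 transporters, where it was the highest for 24.8% of all genes. Wild type replicate 2 was the highest wild type array for 6 of the 10 (28.4% of all genes), and wild type replicate 3 the lowest for 6 of the 10 (26.6% of all genes). Macrophage and leukocyte markers stood the other way round on these 3 arrays. Their mean was 7.74, 6.88, 6.76 and 7.07 in the knockout arrays, against 7.53, 5.60, 8.07 and 7.30 in the wild type arrays, with 0 of 7 measured markers called (limma) and overlapping groups. Stellate cell and fibroblast markers had a mean of 8.88, 8.13, 8.08 and 8.18 in the knockout arrays, against 8.47, 7.25, 8.82 and 8.63 in the wild type arrays, with 0 of 6 called. Beta cell markers stood on these 3 arrays as most of the transporters did. Their mean was 6.04, 6.80, 7.02 and 6.51 in the knockout arrays, against 6.52, 6.99, 6.17 and 6.34 in the wild type arrays. The alpha list was also highest on wild type replicate 2 and lowest on replicate 3, but its highest knockout array was replicate 2. The delta and PP list was highest on knockout replicate 3 and wild type replicate 4, and lowest on wild type replicate 3. The part of any of these cells in the transporters' values was not tested. With wild type replicate 2 left out, Slc38a5, Slc38a2, Slc6a9, Slc7a3 and Slc7a5 kept their calls.

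Other cell types that express amino acid transporters were checked by their markers, on the mean log2 level of each list. Counts of calls stand beside 16.1% of all genes called higher and 12.6% called lower. Acinar markers (5 of 8 measured, Cpa1, Cel, Ctrb1, Cela1 and Ptf1a) were high on every array, at 12.56 to 12.66 in knockout and 12.76 to 12.93 in wild type arrays, with 2 lower and 0 higher. Of the alpha cell markers 3 of 6 were measured. The transcription factor genes Irx1 and Irx2 fell, by 0.65 and 0.33, but at low levels. Irx1 stood at 4.21 in knockout and 4.87 in wild type arrays, below every array's median, and Irx2 at 5.05 and 5.38. The call of Irx2 was lost in 1 of 8 fits with 1 array left out (limma adjusted p = 0.0516). The glucagon gene Gcg had overlapping groups (difference 0.31, SE 0.387, limma adjusted p = 0.564). The mean of the alpha cell list was 6.37 to 6.92 in knockout and 6.66 to 7.24 in wild type arrays. Endothelial markers had 3 of 5 members higher, with a mean of 7.62 to 7.90 in knockout and 7.29 to 7.56 in wild type arrays. For the beta cell list 1 of 6 fell, for duct markers 0 of 4 and for adipocyte markers 0 of 4 were called, as were 0 of 4 lymph node and spleen markers. Of the delta and PP cell list 2 of 3 rose, Hhex by 1.05 (limma adjusted p = 0.00564) and Ppy by 1.33 (adjusted p = 0.0487, overlapping groups). Sst had a negative difference, -0.73, that did not pass (adjusted p = 0.158). The part of these lists in the members' values was not tested.

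Among the other amino acid transporters, listed by family, 40 of 43 were measured and 6 rose and 9 fell, which is 37.5% called, with a median of -0.09 against -0.04 for all genes. All 6 that rose had groups that did not overlap, but only 4 of the 9 that fell did, and 4 of the 9 had a group mean below every array's median, where differences are rough. The 9 became 4 or 5 when knockout replicate 1, 2, 3 or 4 or wild type replicate 2 or 3 was left out.

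Within the SLC38 family, members included, 5 of 11 genes rose and 3 fell, against 16.1% higher and 12.6% lower over all genes. The 3 that fell were Slc38a5, Slc38a2 and Slc38a3. Slc38a3, the other system N transporter at the plasma membrane, stood at 10.86, 10.97, 10.77 and 10.91 in the knockout arrays, against 11.44, 11.52, 11.55 and 11.46 in the wild type arrays. Its groups lay apart, and it fell by 0.61 (SE 0.0758, limma adjusted p = 0.000494). Slc38a7, a glutamine transporter of lysosomes, stood at 8.39, 8.48, 8.46 and 8.66 in the knockout arrays, against 7.84, 7.87, 7.68 and 7.86 in the wild type arrays, a rise of 0.69 (SE 0.0867, limma adjusted p = 0.000566). Slc38a6 rose by 0.92 (SE 0.150) and Slc38a4, a system A carrier, by 0.79 (SE 0.177). The 2 remaining rises, named here after their values were seen, were small, 0.25 for Slc38a9, the arginine sensor of lysosomes, and 0.26 for Slc38a10. Both lost their calls after quantile normalization (adjusted p = 0.305 and 0.126) and after cyclic loess (0.315 and 0.198). When 1 array was left out, the call of Slc38a9 was lost in 7 of 8 fits (adjusted p = 0.0506 to 0.0962) and that of Slc38a10 in 6 of 8 (0.0721 to 0.112).

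Outside that family, Slc1a3, a glutamate and aspartate transporter, stood at 8.10, 7.86, 8.09 and 8.07 in the knockout arrays, against 7.17, 7.34, 7.18 and 7.29 in the wild type arrays, a rise of 0.78 (SE 0.0857, limma adjusted p = 0.000262). Slc7a6 (y+LAT2), a further light chain of Slc3a2 that exchanges cationic for neutral amino acids, fell by 0.70 (SE 0.0999, adjusted p = 0.00105) with no overlap. Of the 4 light chains with a feature of their own, counted after the values were seen, 1 rose and 2 fell. Over all genes 16.1% were higher and 12.6% lower. Slc36a1, a proton-coupled exporter of small amino acids from lysosomes, fell by 0.42 (SE 0.0815, adjusted p = 0.00530). Slc6a15, a carrier of branched-chain amino acids and proline, fell by 1.16 (SE 0.263, adjusted p = 0.0106) at a low level, 3.51 in knockout and 4.67 in wild type arrays. In the SLC6 family, Slc6a9 included, 5 of 11 fell and 0 rose, against 12.6% lower and 16.1% higher over all genes. The 4 falls other than Slc6a9 are those whose levels lay below the array medians.

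**Figure D4:**
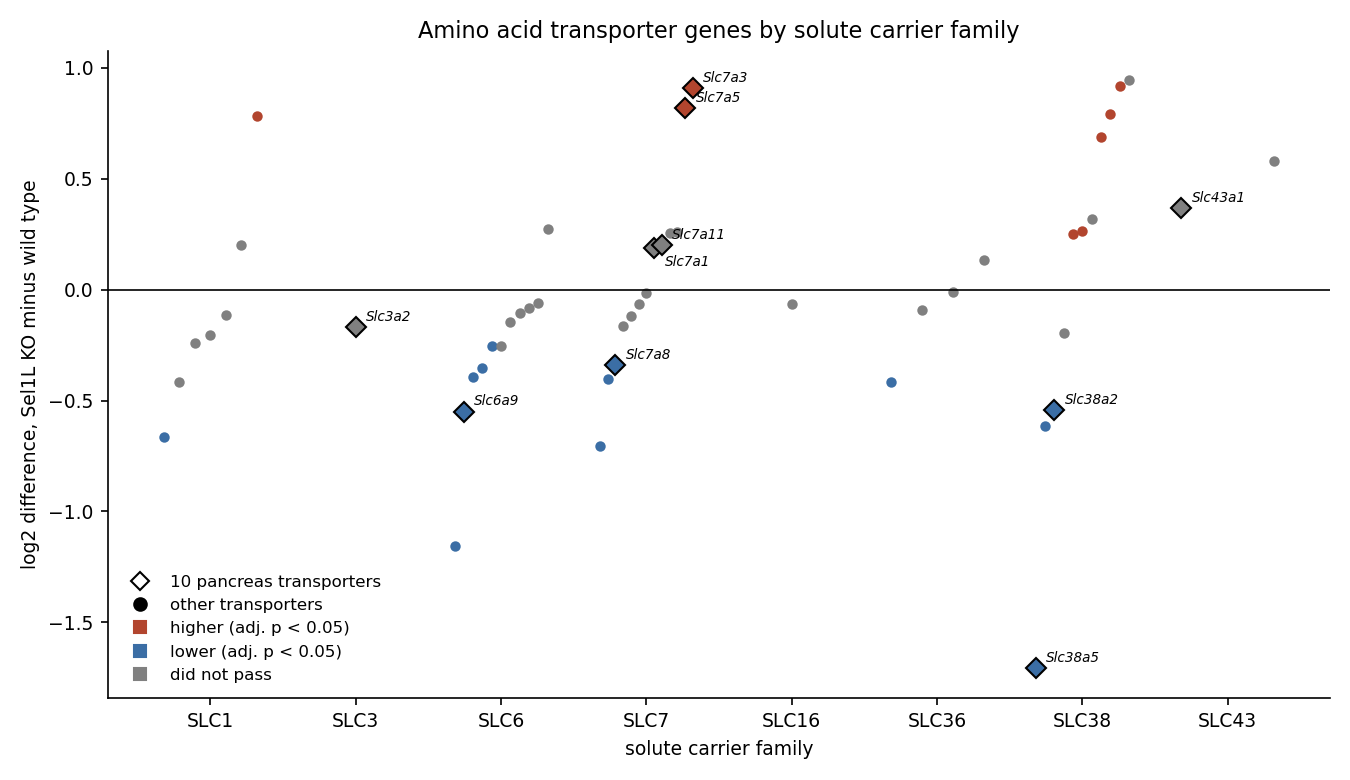
Log2 difference, Sel1L knockout minus wild type, of all measured amino acid transporter genes, grouped by solute carrier family and ordered by size within each family. Diamonds are the 10 pancreas transporters and circles the other 40, and colours give the call at an adjusted p under 0.05. SLC38 holds changes in both directions, with 5 genes higher and 3 lower, while the called genes of SLC6 are all lower. Over all genes 16.1% were called higher and 12.6% lower.

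Genes induced through ATF4 were examined because several of the transporters belong to that response in cultured cells. Of 23 measured genes of the ATF4 list, members left out, 8 rose and 6 fell, with a median difference of 0.08. That is 60.9% called, against 28.7% of all genes. All 23 were above the median level of genes, where calls were more frequent (4176 of 9410 genes). Atf4 itself, named after its value was seen, stood at 8.21, 8.20, 8.36 and 8.39 in the knockout arrays, against 7.54, 7.93, 7.76 and 7.86 in the wild type arrays, a rise of 0.52 (SE 0.101, limma adjusted p = 0.00547). The stress genes Trib3, Stc2 and Cebpg rose by 3.72, 1.56 and 0.94 (limma adjusted p of at most 0.000105). Further genes on the list that are not enzymes of amino acids, named after their values were seen, differed. Sesn2, Ddit4, Nupr1 and Ppp1r15a rose too. Atf3 (difference 0.46, limma adjusted p = 0.241) and Fgf21 (-0.45, adjusted p = 0.217) did not pass, and Vegfa fell (-0.31, adjusted p = 0.0412). The 3 falls with the smallest p were in genes of amino acid enzymes. Other enzyme genes on the list, named after their values were seen, differed. Phgdh (difference -0.40, limma adjusted p = 0.0111) and Mthfd2 (-0.60, adjusted p = 0.00467) fell too. Psat1 (-0.05, adjusted p = 0.823) and Cth (0.35, adjusted p = 0.122), for example, did not pass. Shmt2, which converts serine to glycine in mitochondria, changed by -1.21, the asparagine synthetase gene Asns by -0.44, and the alanine aminotransferase gene Gpt2 by -0.56 (limma adjusted p of at most 0.00405). Of the 5 transporters known as ATF4-induced (Slc7a5, Slc7a11, Slc3a2, Slc7a1 and Slc38a2, a grouping made after the values were seen), 1 rose, 1 fell and 3 did not pass. Over all genes 16.1% were higher and 12.6% lower.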

How the data were processed

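RNA of 4 Sel1L knockout and 4 wild type samples of mouse pancreas was profiled on whole-transcript arrays, starting from 100 ng of RNA. Per the submitters' processing notes, the deposited log2 values come from RMA, which corrects background, normalizes between arrays and summarizes probes into features. The sources used here give neither version nor chip definition, nor which arrays were normalized together, and no header names the log base, which is taken from RMA and the range of 0.964 to 14.37. Of 35556 features, 21218 had 1 symbol in GEO's platform annotation. Where a gene had more than 1, the brightest on average was kept (2398 left out), leaving 18820 genes. Genotype was fitted with limma 3.58.1 (lmFit, eBayes, 6 residual degrees of freedom) in R 4.3.3, with Benjamini-Hochberg adjustment over all genes and no filter. Within-array differences of 5 pairs were tested by exact two-sided permutation (SciPy 1.17.1). On simulated arrays with 200 of 18820 genes changed between 4 and 4 samples, limma recovered 47% of changes of 0.5 and 85% of changes of 1 log2 unit, with 6 false calls among 138. In the deposited values a far larger share of genes, 28.7%, was called. The adjusted threshold then falls at another p-value, so these recovered shares do not carry over to them. The number of arrays limits the precision.

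The members and lists were chosen with earlier results of these data known. Named genes were the 10 transporters, Sel1l, up to 4 other transporters and 3 ATF4 genes in each direction with the smallest p among those called, and the 5 nearest profiles of the members with the largest fall and rise, leaving out predicted genes, receptors and microRNAs; others are said to be outside this rule or serve as cell type markers. Alternatives were quantile normalization, median centring, cyclic loess, genes above the median level, the mean of features, every feature by itself, trend and robust variance, array weights, leaving out each array, and the replicate number as a block.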

Additional observations from a re-analysis of the deposited data

Results flagged for a closer look

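In 5 of the 50 groups of 4 arrays examined (25 genes), 1 array lay far from the other 3 by Dixon's gap test; chance flags about 1 in 20. For Slc3a2, wild type replicate 3 was low at 11.94, against 12.21 to 12.22 on the other wild type arrays. For Sel1l, knockout replicate 4 was the lowest at 11.45, against 11.66 to 11.70. For Slc1a3, knockout replicate 2 stood at 7.86, against 8.07 to 8.10 on the other knockout arrays. For Slc38a7, wild type replicate 3 stood at 7.68, against 7.84 to 7.87. For Slc38a4, wild type replicate 4 stood at 6.63, against 5.97 to 6.04. Of these genes, Slc3a2 is the 1 among the 10 transporters.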

How the results depend on the processing

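No gene named by the rule turned its direction under any of the 17 alternatives in which it was tested. Slc43a1, Slc6a15, Galnt6, Irx1 and Irx2 were not tested among genes above the median level. Several alternatives could not turn a direction of the 10 transporters, which have 1 feature each. The level filter, both feature settings, trend and robust variance and the replicate block leave their differences unchanged and move only the p-values. Only the other normalizations, array weights and left-out arrays could turn one. The counts of transporters called stayed at 2 or 3 higher and 3 or 4 lower, of 9 tested under that filter and of 10 otherwise. Differences ranged from -1.80 to -1.66 for Slc38a5, -0.64 to -0.50 for Slc38a2, -0.64 to -0.50 for Slc6a9, 0.73 to 0.88 for Slc7a5 and 0.77 to 0.99 for Slc7a3, with limma adjusted p of at most 0.0113. Of the other amino acid transporters, 9 fell, but 5 of 18 among genes above the median level, 4 when every feature was tested by itself, and 4 to 7 when 1 array was left out; the first tests fewer genes, and the cause of the others was not tested. Centring arrays on their medians moved the median difference of all genes to -0.11, and the share of higher genes among calls was 56.0% as deposited, 42.9% after quantile normalization, 36.3% after centring and 48.1% after cyclic loess. Same-numbered arrays did not consistently deviate together (correlations 0.22, 0.15, -0.27 and -0.02). The labels do not say whether the numbers pair samples, and these correlations cannot decide it. With the replicate number as a block 4678 genes were called instead of 5406, and 2 transporters were higher and 3 lower. Members near the array medians, such as Slc43a1, are the least certain in size.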
